A study of Mus musculus with 4 samples.

Results

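The lysosomal hydrolases and proton pump genes are 46 of the 41214 genes counted in this series. They were taken as a list of gene symbols, grouped by function, and every symbol was found in the table. Of the 46 genes, 24 encode enzymes and helper proteins of the lysosomal lumen, 8 encode proteins of the lysosomal membrane and 14 encode subunits of the vacuolar proton pump. RNA was sequenced from unstimulated B220+ splenocytes of MIZ-1WT mice and of MIZ-1△POZ mice, with 2 libraries for each genotype. B220 is a surface form of CD45 on B cells, and the cells were enriched on magnetic beads that bind it. In MIZ-1△POZ mice the floxed POZ domain of *Miz-1* (*Zbtb17*), a zinc finger transcription factor, is deleted by a Cre recombinase expressed from the *Mb1* (*Cd79a*) locus, which is active in the B lineage only. The mice were C57BL/6 and between the sixth and the tenth week of life. Whether the MIZ-1WT mice carried the Cre allele is not given in the sources used here.

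Lysosomes are acidic compartments in which proteins, sugars and lipids delivered by endocytosis, phagocytosis and autophagy are broken down. The acid is supplied by the vacuolar ATPase, in which the V1 sector in the cytosol hydrolyzes ATP and the V0 sector in the membrane carries protons into the lumen. In B cells, lysosomal proteases cut antigen taken up through the B cell receptor and trim the invariant chain of MHC class II, whereas macrophages use large amounts of the same enzymes to digest the cells that they engulf. Many lysosomal genes share a short promoter sequence, an E-box that is bound by TFEB, TFE3 and MITF.

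The libraries held between 43026814 and 46387209 counts on genes. Pan-B cell markers were high in every library, with no marker of 10 under 5421 counts. The targeted gene *Zbtb17* was lower in MIZ-1△POZ, with a log2 fold change of -0.32 (edgeR adjusted p = 0.00857). These are counts over the whole gene and do not resolve the deleted exons. Sex-linked genes separated the genotypes: *Xist* had 49 and 60 counts in the MIZ-1WT libraries against 38145 and 40838 in the MIZ-1△POZ libraries, and the Y-linked *Ddx3y* had 15840 and 14896 against 680 and 622. Sex and genotype therefore cannot be told apart in any value below. Reads outside genes also differed, at 27.2% and 25.5% in MIZ-1WT against 21.6% and 21.1% in MIZ-1△POZ. Macrophage markers separated the genotypes as well: all 16 on the list, from *Adgre1* to *Marco*, were higher in MIZ-1△POZ (median log2 fold change 2.00). Their summed level was 971 and 1295 counts per 1000000 (CPM) in MIZ-1WT and 5813 and 3632 CPM in MIZ-1△POZ, and no marker was at 0 in any library (lowest count 46). Macrophages use many of the enzymes described here, and the part of these cells in the results was not tested. With bulk RNA, more cells of a type and more RNA per cell cannot be told apart.

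Most of the enzyme genes rose in MIZ-1△POZ and few of the pump genes did. Of the 24 luminal hydrolases and helper proteins, 17 were higher in MIZ-1△POZ, 1 was lower and 6 did not pass the test, with a median log2 fold change of 0.47. Of the 14 pump subunits, 1 was higher, 4 were lower, 8 did not pass and 1 was too low to test, with a median of -0.078. The 8 membrane proteins lay between them, with 3 higher, 0 lower, 5 not past the test and a median of 0.24. The median over all 14554 tested genes was -0.0064, and 21.1% of them were higher and 18.9% were lower. The difference between these groups of genes was not itself tested.

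Over the whole list, 45 of the 46 genes could be tested, and the threshold was an adjusted p under 0.05 (edgeR, quasi-likelihood test, Benjamini-Hochberg adjustment over every tested gene). In MIZ-1△POZ 21 members were higher and 5 lower. By the same test 21.1% of all tested genes were higher and 18.9% were lower. With limits of at least 0.6 on the log2 scale and an unadjusted p under 0.05, 10 members were higher and 0 were lower, where 15% and 5.3% of all tested genes were. Both MIZ-1△POZ libraries lay above both MIZ-1WT libraries for 27 of the 45 members and below them for 9, and the genotypes overlapped for the other 9. The corresponding shares of all tested genes were 37.2% above and 37.6% below. With either MIZ-1WT library left out, fewer members were called higher or lower, and fewer of all tested genes were called as well. Leaving out either MIZ-1△POZ library changed the counts of members less. The fold changes of 10 genes passed the test under every alternative in which they could be tested, each of them higher in MIZ-1△POZ: *Asah1*, *Cd68*, *Ctsb*, *Ctsd*, *Glb1*, *Grn*, *Lgmn*, *Lipa*, *Man2b1* and *Psap*. Of these, *Cd68* lay under the minimum of 30 RPM (reads per 1000000 counts) that 1 alternative set and was not tested in it.

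**Figure D1:**
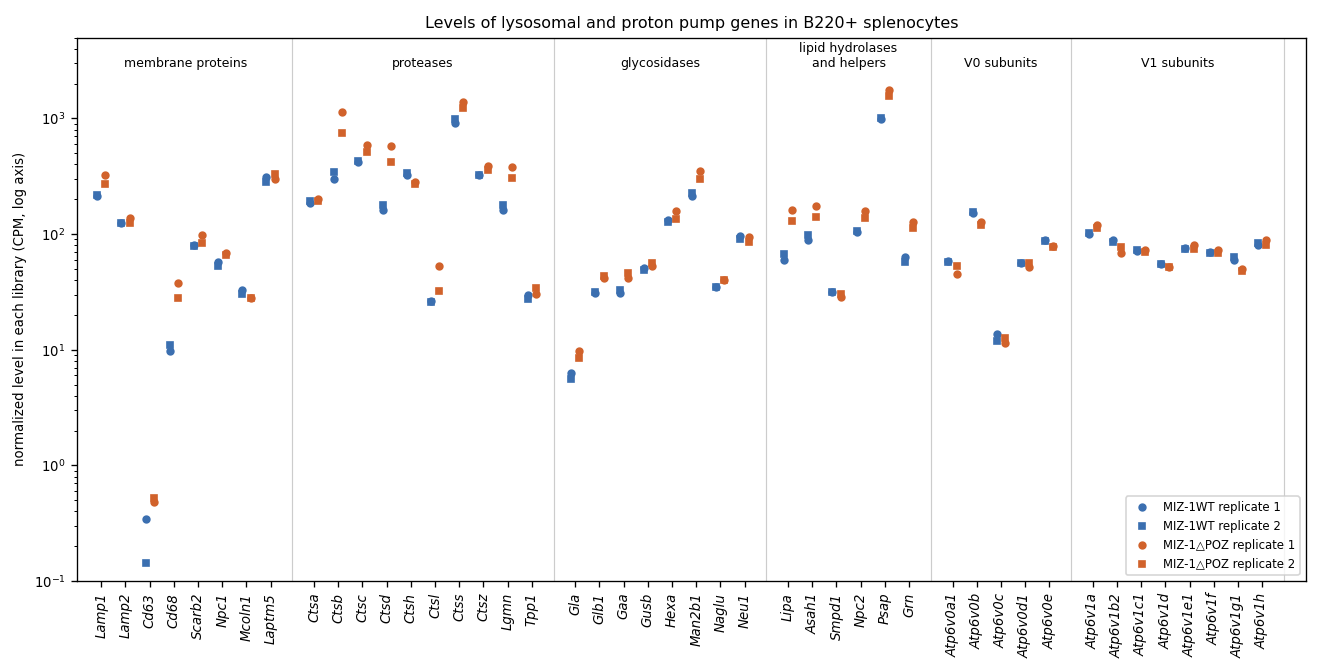
Normalized level of each gene in each of the 4 libraries (CPM on a log axis, MIZ-1WT in blue and MIZ-1△POZ in orange, replicate 1 as circles and replicate 2 as squares), grouped by role. *Cd68*, *Ctsb*, *Ctsd*, *Lgmn*, *Lipa* and *Grn* show the widest gaps between genotypes, the pump subunits lie close together, and *Atp6v0d2*, at 0 counts in both MIZ-1WT libraries, is not drawn.

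The levels of these genes differed widely. In CPM divided by the exon length in kilobases (RPKM), *Ctss* stood highest in both MIZ-1WT libraries, at 675 and 722, followed by *Psap* at 361 and 366 and *Ctsz* at 225 and 226. A wide step separated these from the next genes, *Lamp1* (79.6 and 81.9 RPKM) and *Laptm5* (82.0 and 73.8 RPKM), whose ranges overlapped. In MIZ-1△POZ the same 3 genes led, but *Ctsd* came next, at 246 and 178 RPKM, followed by *Ctsb*, at 187 and 124 RPKM. The range of *Ctsb* overlapped those of *Ctsd* and of *Lgmn*, the latter at 162 and 131 RPKM. In MIZ-1WT *Ctsd* and *Ctsb* had stood at 68.2 and 76.4 RPKM (*Ctsd*) and at 49.7 and 56.8 RPKM (*Ctsb*). The lowest levels in MIZ-1WT were those of *Gla*, with a mean of 1.82 RPKM, *Cd63*, with 0.0661 RPKM, and *Atp6v0d2*, with 0.

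The promoter sequences were read for the E-box that many lysosomal genes are known to share. Its presence in a list of lysosomal genes is therefore not independent of the choice of genes. RefSeq promoter windows of GRCm38.p6, from 250 bases before to 50 bases after a start site, were at hand for 37 of the 46 genes. The E-box CACGTG was present in 14 of the 37 genes (37.8%) and in 8.09% of the 27025 genes with a window, or in 11.7% of the tested genes. Its extended form TCACGTGA, the lysosomal type of the motif, was present in 7 of the 37 genes (18.9%) and in 1.12% of all genes with a window, or in 2.22% of the tested genes. Both motifs read the same on either strand, and every extended motif also holds the shorter one. The 7 genes are shown because they span all of the directions seen here; the extended motif is in capitals, each line is written 5′ to 3′ on the strand of the gene, and no sequence reaches past a short stretch after the start site.
Ctsd, chr7:142387893-142387952, minus strand: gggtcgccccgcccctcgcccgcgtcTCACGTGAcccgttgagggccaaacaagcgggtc
Gla, chrX:134601200-134601255, minus strand: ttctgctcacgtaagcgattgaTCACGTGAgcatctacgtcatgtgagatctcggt
Gla (the other copy of the motif), chrX:134601167-134601226, minus strand: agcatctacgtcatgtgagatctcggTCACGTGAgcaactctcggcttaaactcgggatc
Atp6v1a, chr16:44139358-44139417, minus strand: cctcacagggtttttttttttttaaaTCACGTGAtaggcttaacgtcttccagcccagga
Mcoln1, chr8:3500447-3500506, plus strand: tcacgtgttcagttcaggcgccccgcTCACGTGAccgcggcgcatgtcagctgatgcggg
Ctsa, chr2:164833734-164833772, plus strand: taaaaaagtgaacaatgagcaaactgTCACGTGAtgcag
Ctsa (the other copy of the motif), chr2:164833767-164833794, plus strand: atgcagatgcTCACGTGAccagagctac
Atp6v0d1, chr8:105566051-105566078, minus strand: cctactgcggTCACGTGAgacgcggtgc
Atp6v0e, chr17:26676388-26676415, plus strand: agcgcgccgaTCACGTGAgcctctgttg

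Relative to the start site, the motif began at -99 in *Ctsd*, at -228 and -195 in *Gla*, at -132 in *Atp6v1a*, at -46 in *Mcoln1*, at -13 and 5 in *Ctsa*, at -4 in *Atp6v0d1* and at 3 in *Atp6v0e*. The genes that hold it did not move one way. *Ctsd* (log2 fold change 1.55), *Gla* (0.61) and *Atp6v1a* (0.20) were higher in MIZ-1△POZ and *Atp6v0e* (-0.17) was lower, while *Ctsa* (0.061), *Atp6v0d1* (-0.057) and *Mcoln1* (-0.18) did not pass the test. Of the other 7 genes, with only the shorter motif, *Ctsl*, *Gaa*, *Glb1*, *Lamp1*, *Lgmn* and *Naglu* were higher in MIZ-1△POZ and *Atp6v0b* was lower. A match is a description of the sequence and not a binding site.

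Among the proteases, 7 of 10 were higher in MIZ-1△POZ and 1 was lower, with a median log2 fold change of 0.42. Their summed level was 2849 and 3019 CPM in MIZ-1WT and 5026 and 4094 CPM in MIZ-1△POZ. For comparison, 21.1% of all tested genes were higher and 18.9% were lower. *Ctsd* (chr7:142375911-142388038, minus strand, GRCm38) encodes cathepsin D, the main aspartic protease of the lysosome. *Ctsd* stood at 160.3 and 179.5 CPM in the MIZ-1WT libraries and at 578 and 419 CPM in the MIZ-1△POZ libraries. The MIZ-1△POZ libraries lay far above both MIZ-1WT libraries, and replicate 1 was the higher of the pair. The log2 fold change was 1.55 ± 0.16 (SE; edgeR adjusted p = 0.00191), a fold of 2.93, with means of 169.9 ± 13.6 CPM in MIZ-1WT and 498 ± 113 CPM in MIZ-1△POZ (SD, n = 2 each). Another annotated gene, *Gm49369*, shares 32.4% of the read-length stretches of its exons and is no row of the count table used here, so the origin of the reads in them cannot be told apart.

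*Ctsb*, which encodes the cysteine protease cathepsin B, moved by nearly the same amount. *Ctsb* stood at 301 and 343 CPM in the MIZ-1WT libraries and at 1130.4 and 752 CPM in the MIZ-1△POZ libraries. The gap between the MIZ-1△POZ libraries was wide, but both exceeded MIZ-1WT. On the log2 scale the change was 1.55 ± 0.19 (SE; edgeR adjusted p = 0.00321), a fold of 2.92. *Lgmn* (chr12:102394084-102439813, minus strand) encodes legumain, an endopeptidase that cuts after asparagine and matures other cathepsins. *Lgmn* stood at 160.2 and 178 CPM in the MIZ-1WT libraries and at 377 and 305 CPM in the MIZ-1△POZ libraries. The groups did not overlap, and the log2 fold change was 1.01 ± 0.11 (SE; edgeR adjusted p = 0.00230), with means of 169 ± 12.6 CPM in MIZ-1WT and 341 ± 50.9 CPM in MIZ-1△POZ (SD, n = 2 each).

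*Ctss* encodes cathepsin S, which trims the invariant chain of MHC class II in B cells and dendritic cells. *Ctss* stood at 917 and 979.9 CPM in the MIZ-1WT libraries and at 1394 and 1222 CPM in the MIZ-1△POZ libraries. Both replicates of MIZ-1△POZ lay above MIZ-1WT, with a log2 fold change of 0.46 ± 0.08 (SE; edgeR adjusted p = 0.00828). *Ctsc*, whose product activates granule proteases, rose by 0.38 on the log2 scale, and *Ctsz*, a carboxypeptidase, rose by 0.20. *Ctsl*, the cysteine protease cathepsin L, stood at 26.4 and 25.7 CPM in MIZ-1WT and at 52.7 and 32.3 CPM in MIZ-1△POZ. Replicate 1 of MIZ-1△POZ carried much of this difference: the log2 fold change was 0.71 over all libraries and 0.32 without MIZ-1△POZ replicate 1.

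*Ctsh*, an aminopeptidase of the cathepsin family, went the other way. *Ctsh* stood at 324 and 339 CPM in the MIZ-1WT libraries and at 282 and 271 CPM in the MIZ-1△POZ libraries. Both MIZ-1△POZ libraries lay below both MIZ-1WT libraries, with a log2 fold change of -0.26 ± 0.049 (SE; edgeR adjusted p = 0.0103). *Ctsa* (chr2:164832873-164841032, plus strand) encodes the protective protein that stabilizes neuraminidase and β-galactosidase. *Ctsa* stood at 186 and 192 CPM in the MIZ-1WT libraries and at 203 and 192 CPM in the MIZ-1△POZ libraries. The values lay within a narrow band, with means of 189 ± 3.66 CPM in MIZ-1WT and 197 ± 7.56 CPM in MIZ-1△POZ (SD, n = 2 each). For *Ctsa* the log2 fold change was 0.061 ± 0.049 (SE; 95% interval -0.06 to 0.18; edgeR adjusted p = 0.362). *Tpp1*, a tripeptidyl peptidase, did not pass the test either (0.17). Without either one of the MIZ-1WT libraries the calls of *Ctsc*, *Ctsh*, *Ctsl* and *Ctsz* were lost, and that of *Ctss* was lost without MIZ-1WT replicate 1, with log2 fold changes then of 0.36 and 0.39 for *Ctsc*, -0.30 and -0.23 for *Ctsh*, 0.72 and 0.68 for *Ctsl*, 0.20 and 0.20 for *Ctsz*, and 0.41 for *Ctss*. *Ctsz* also lost its call without MIZ-1△POZ replicate 1 (0.15), and *Ctsl* with DESeq2's Wald test.

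Among the glycosidases, which cleave sugar chains from glycoproteins and glycolipids, 5 of 8 were higher in MIZ-1△POZ and 0 were lower, with a median log2 fold change of 0.33. Their summed level was 596 and 597 CPM in MIZ-1WT and 793 and 717 CPM in MIZ-1△POZ. For comparison, 21.1% of all tested genes were higher and 18.9% were lower. *Glb1* (chr9:114401076-114474898, plus strand) encodes β-galactosidase. *Glb1* stood at 30.8 and 31.3 CPM in the MIZ-1WT libraries and at 42.1 and 43.8 CPM in the MIZ-1△POZ libraries. The replicates of each genotype were close and the genotypes were apart. edgeR gave a log2 fold change of 0.47 ± 0.059 (SE; edgeR adjusted p = 0.00336), with means of 31.1 ± 0.338 CPM in MIZ-1WT and 42.9 ± 1.19 CPM in MIZ-1△POZ (SD, n = 2 each). *Man2b1* (chr8:85083270-85098282, plus strand) encodes lysosomal α-mannosidase. *Man2b1* stood at 215 and 225 CPM in the MIZ-1WT libraries and at 353 and 302 CPM in the MIZ-1△POZ libraries. Again the groups did not overlap, and the log2 fold change was 0.57 ± 0.081 (SE; edgeR adjusted p = 0.00470), with means of 219.8 ± 6.88 CPM in MIZ-1WT and 327 ± 36.3 CPM in MIZ-1△POZ (SD, n = 2 each).

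*Gla* (chrX:134588149-134601125, minus strand) encodes α-galactosidase A, the enzyme missing in Fabry disease. *Gla* stood at 6.35 and 5.57 CPM in the MIZ-1WT libraries and at 9.70 and 8.50 CPM in the MIZ-1△POZ libraries. Its level was low, and both MIZ-1△POZ libraries lay above both MIZ-1WT libraries. This made a log2 fold change of 0.61 ± 0.13 (SE; edgeR adjusted p = 0.0172), with means of 5.96 ± 0.553 CPM in MIZ-1WT and 9.10 ± 0.854 CPM in MIZ-1△POZ (SD, n = 2 each). *Gla* is on the X chromosome. *Gaa*, acid α-glucosidase, was higher by 0.46 on the log2 scale and *Naglu*, which acts on heparan sulfate, by 0.21.

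*Neu1* (chr17:34931253-34935953, plus strand), the lysosomal neuraminidase, showed no difference past the test. *Neu1* stood at 96.1 and 91.4 CPM in the MIZ-1WT libraries and at 95.2 and 85.6 CPM in the MIZ-1△POZ libraries. The genotypes overlapped, with means of 93.7 ± 3.33 CPM in MIZ-1WT and 90.4 ± 6.72 CPM in MIZ-1△POZ (SD, n = 2 each). *Neu1* had a log2 fold change of -0.052 ± 0.067 (SE; 95% interval -0.22 to 0.11; edgeR adjusted p = 0.569). *Gusb*, β-glucuronidase (0.13), and *Hexa*, the α subunit of β-hexosaminidase (0.18), also failed the test. *Hexa* passed it without MIZ-1△POZ replicate 2 (0.31; 0.07 without replicate 1), and *Gusb* passed it without TMM (0.19) and with a minimum of 30 RPM (0.21). The call of *Naglu* was lost without any 1 of the 4 libraries (log2 fold changes from 0.20 to 0.23), that of *Gla* without either MIZ-1WT library (0.71 and 0.52), and that of *Gaa* without MIZ-1WT replicate 1 (0.42). *Naglu* also lost its call with DESeq2's Wald test and with no filter on counts.

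The group of lipid hydrolases and luminal helper proteins had the highest median of the 6 groups, a log2 fold change of 0.74, with 5 of its 6 genes higher in MIZ-1△POZ and 0 lower. Its summed level was 1338 and 1364 CPM in MIZ-1WT and 2417 and 2107 CPM in MIZ-1△POZ. For comparison, 21.1% of all tested genes were higher and 18.9% were lower. *Lipa* (chr19:34492318-34527474, minus strand) encodes lysosomal acid lipase, which frees cholesterol and fatty acids from lipoprotein esters. *Lipa* stood at 59.8 and 67.3 CPM in the MIZ-1WT libraries and at 161 and 131 CPM in the MIZ-1△POZ libraries. The 2 genotypes were well separated. The log2 fold change was 1.20 ± 0.11 (SE; edgeR adjusted p = 0.00172), a fold of 2.29, with means of 63.6 ± 5.32 CPM in MIZ-1WT and 146 ± 21.2 CPM in MIZ-1△POZ (SD, n = 2 each). *Grn* (chr11:102430315-102437048, plus strand) encodes progranulin, a glycoprotein that is cut into granulins in the lysosome. *Grn* stood at 62.9 and 57.6 CPM in the MIZ-1WT libraries and at 127 and 113 CPM in the MIZ-1△POZ libraries. The MIZ-1△POZ libraries lay well above MIZ-1WT, and the log2 fold change was 1.00 ± 0.078 (SE; edgeR adjusted p = 0.00116), with means of 60.3 ± 3.73 CPM in MIZ-1WT and 120.3 ± 10.2 CPM in MIZ-1△POZ (SD, n = 2 each).

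*Psap* encodes prosaposin, the precursor of the saposins that present sphingolipids to their hydrolases. *Psap* stood at 991 and 1003 CPM in the MIZ-1WT libraries and at 1765 and 1556 CPM in the MIZ-1△POZ libraries. It was among the most abundant genes of the list in every library and rose by 0.74 ± 0.074 (SE; edgeR adjusted p = 0.00196) on the log2 scale. *Asah1*, acid ceramidase, rose by 0.75, and *Npc2*, the soluble cholesterol carrier of the lumen, rose by 0.50. *Smpd1* (chr7:105554360-105558389, plus strand), acid sphingomyelinase, was the exception. *Smpd1* stood at 31.5 and 31.7 CPM in the MIZ-1WT libraries and at 28.7 and 30.1 CPM in the MIZ-1△POZ libraries. The MIZ-1△POZ libraries lay slightly lower, with means of 31.6 ± 0.187 CPM in MIZ-1WT and 29.4 ± 1.02 CPM in MIZ-1△POZ (SD, n = 2 each). For *Smpd1* the log2 fold change was -0.10 ± 0.063 (SE; 95% interval -0.26 to 0.052; edgeR adjusted p = 0.234). Without MIZ-1WT replicate 1 the call of *Npc2* was lost (0.48).

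**Figure D2:**
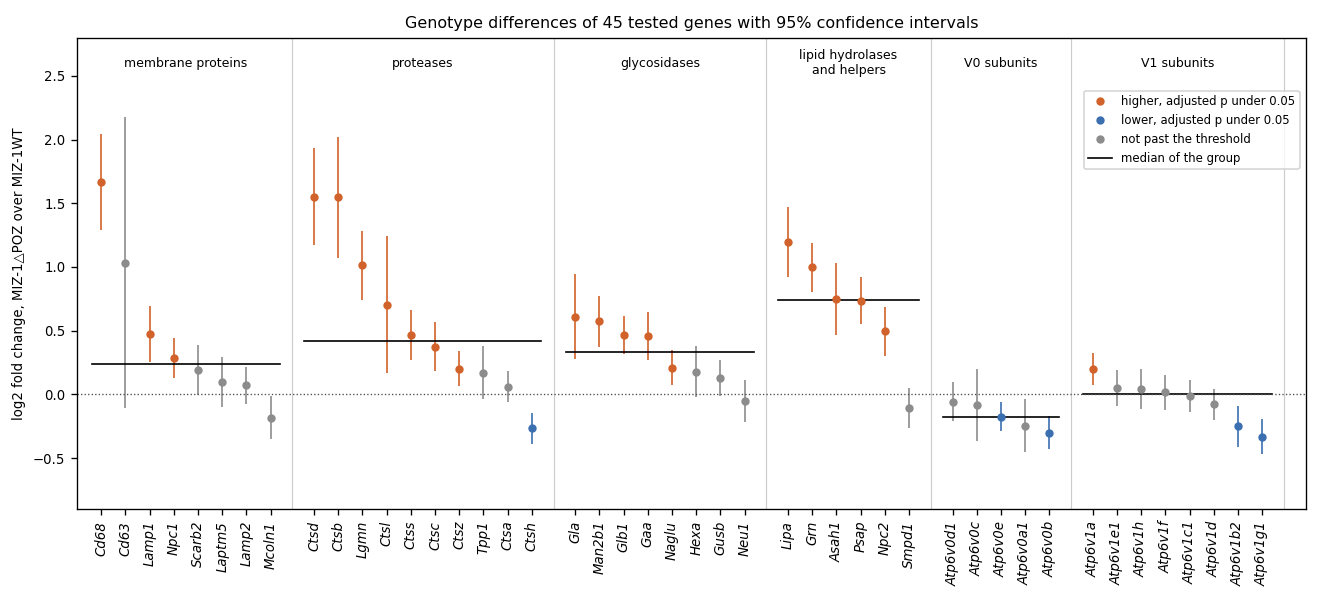
Log2 fold change of the 45 tested genes, MIZ-1△POZ over MIZ-1WT, with 95% confidence intervals, grouped by role and ordered by size (orange, higher and blue, lower at an adjusted p under 0.05; grey, not past it; black lines, group medians). The group medians were 0.24 for membrane proteins, 0.42 for proteases, 0.33 for glycosidases, 0.74 for lipid hydrolases and helpers, -0.17 for V0 subunits and 0.0033 for V1 subunits.

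Among the membrane proteins, *Cd68*, *Lamp1* and *Npc1* were higher in MIZ-1△POZ and the other 5 did not pass the test. The shares of all tested genes were 21.1% higher and 18.9% lower, and the counts of this small group were not tested against them. *Cd68* (chr11:69664213-69666153, minus strand), a heavily glycosylated protein of late endosomes that is abundant in macrophages, had the largest fold change of the 45 tested genes. *Cd68* stood at 9.76 and 10.9 CPM in the MIZ-1WT libraries and at 37.5 and 28.2 CPM in the MIZ-1△POZ libraries. The groups were far apart, with means of 10.4 ± 0.833 CPM in MIZ-1WT and 32.8 ± 6.54 CPM in MIZ-1△POZ (SD, n = 2 each). On the log2 scale the change was 1.67 ± 0.15 (SE; edgeR adjusted p = 0.00161), a fold of 3.17. *Cd68* was not one of the 16 macrophage markers on the list used here, which all rose by more than it did (from 1.71 to 3.50 on the log2 scale).

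*Lamp1* (chr8:13159161-13175338, plus strand), one of the major glycoproteins of the lysosomal membrane, also rose. *Lamp1* stood at 213 and 219 CPM in the MIZ-1WT libraries and at 327 and 273 CPM in the MIZ-1△POZ libraries. Both MIZ-1△POZ libraries were above MIZ-1WT, with means of 216 ± 4.44 CPM in MIZ-1WT and 300.3 ± 38.4 CPM in MIZ-1△POZ (SD, n = 2 each). edgeR gave a log2 fold change of 0.48 ± 0.089 (SE; edgeR adjusted p = 0.0105). Its close relative *Lamp2* (chrX:38401357-38456454, minus strand), an X-linked gene needed for autophagosome fusion and chaperone-mediated autophagy, did not pass the test. *Lamp2* stood at 124 and 125 CPM in the MIZ-1WT libraries and at 137 and 124 CPM in the MIZ-1△POZ libraries. The genotypes overlapped, with means of 124 ± 0.713 CPM in MIZ-1WT and 131 ± 9.07 CPM in MIZ-1△POZ (SD, n = 2 each). *Lamp2* had a log2 fold change of 0.07 ± 0.06 (SE; 95% interval -0.077 to 0.22; edgeR adjusted p = 0.387).

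*Npc1*, the membrane transporter that exports cholesterol, rose by 0.28 on the log2 scale. *Scarb2*, the receptor that carries β-glucocerebrosidase to lysosomes (0.19), *Laptm5*, a lysosomal protein of blood cells that lowers surface B cell receptor (0.10), and *Mcoln1*, the lysosomal calcium channel (-0.18), did not pass. *Cd63*, a tetraspanin of late endosomes, had few counts, 15 and 6 counts in MIZ-1WT and 23 and 23 counts in MIZ-1△POZ. A processed pseudogene, *Cd63-ps*, is a near copy of part of it, and reads without a unique alignment were not counted. Its log2 fold change of 1.03 had a 95% interval from -0.11 to 2.17. Without either MIZ-1WT library the calls of *Lamp1* (0.45 and 0.49) and *Npc1* (0.34 and 0.22) were lost, whereas *Lamp2* (0.16) and *Scarb2* (0.32) passed the test without MIZ-1△POZ replicate 2.

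The membrane sector of the proton pump had no gene called higher, but only 5 of its genes could be tested. Over all tested genes 21.1% were higher and 18.9% were lower, and the counts of the sector were not tested against these shares. Of the 5 V0 genes tested, 2 were lower in MIZ-1△POZ and 0 were higher (median -0.17 on the log2 scale), and the summed level of the sector was 369 and 367 CPM in MIZ-1WT and 315 and 319.6 CPM in MIZ-1△POZ. *Atp6v0b* (chr4:117884326-117887333, minus strand), a proteolipid subunit of the rotating ring, was the clearest case. *Atp6v0b* stood at 152 and 154 CPM in the MIZ-1WT libraries and at 128 and 119.9 CPM in the MIZ-1△POZ libraries. Both MIZ-1△POZ libraries were below MIZ-1WT, with means of 153 ± 1.65 CPM in MIZ-1WT and 124 ± 5.89 CPM in MIZ-1△POZ (SD, n = 2 each). This made a log2 fold change of -0.30 ± 0.051 (SE; edgeR adjusted p = 0.00810), a fold of 0.812. *Atp6v0e* (chr17:26663231-26699647, plus strand), a small subunit of the same sector, fell less. *Atp6v0e* stood at 89.2 and 87.6 CPM in the MIZ-1WT libraries and at 79.0 and 77.7 CPM in the MIZ-1△POZ libraries. The replicates were close together, with means of 88.4 ± 1.13 CPM in MIZ-1WT and 78.4 ± 0.937 CPM in MIZ-1△POZ (SD, n = 2 each). The log2 fold change was -0.17 ± 0.047 (SE; edgeR adjusted p = 0.0321).

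*Atp6v0c* (chr17:24163866-24169702, minus strand), the other proteolipid of the ring, did not pass the test. *Atp6v0c* stood at 13.7 and 11.8 CPM in the MIZ-1WT libraries and at 11.4 and 12.7 CPM in the MIZ-1△POZ libraries. The genotypes overlapped, with means of 12.8 ± 1.33 CPM in MIZ-1WT and 12.1 ± 0.891 CPM in MIZ-1△POZ (SD, n = 2 each). For *Atp6v0c* the log2 fold change was -0.083 ± 0.11 (SE; 95% interval -0.36 to 0.20; edgeR adjusted p = 0.592). Processed pseudogenes copy part of this gene (10.8% of read-length stretches shared), so its level is uncertain. *Atp6v0a1*, an isoform of the large membrane subunit, had a log2 fold change of -0.25 that did not pass the test, although it did without MIZ-1△POZ replicate 2 (-0.34) and with no filter on counts (-0.25).

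The d subunit links the membrane sector to the V1 sector and has a general isoform and one found mainly in osteoclasts and macrophages. The general isoform *Atp6v0d1* (chr8:105524465-105566047, minus strand) overlapped between genotypes. *Atp6v0d1* stood at 56.1 and 56.4 CPM in the MIZ-1WT libraries and at 51.7 and 56.5 CPM in the MIZ-1△POZ libraries, with means of 56.3 ± 0.274 CPM in MIZ-1WT and 54.1 ± 3.44 CPM in MIZ-1△POZ (SD, n = 2 each). *Atp6v0d1* had a log2 fold change of -0.057 ± 0.063 (SE; 95% interval -0.21 to 0.10; edgeR adjusted p = 0.507). The other isoform, *Atp6v0d2* (chr4:19876841-19922605, minus strand), had 0 and 0 counts in MIZ-1WT and 1 and 2 counts in MIZ-1△POZ. At this depth 3 counts correspond to between 0.0647 and 0.0697 RPM, so no difference was detectable and no fold is given. The call of *Atp6v0b* was lost without either MIZ-1WT library (-0.31 and -0.29), and that of *Atp6v0e* without either MIZ-1WT library or MIZ-1△POZ replicate 2 (from -0.19 to -0.14), without TMM, with DESeq2's Wald test and with a minimum of 30 RPM.

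Of the 8 genes of the V1 sector, 1 was higher, 2 were lower and 5 did not pass the test, which is near the shares of all tested genes (21.1% higher and 18.9% lower), and the median was 0.0033 on the log2 scale. The summed level was 600.2 and 606 CPM in MIZ-1WT and 606 and 583 CPM in MIZ-1△POZ. *Atp6v1a* (chr16:44085402-44139705, minus strand), the subunit that hydrolyzes ATP, was the only pump gene of the 14 that rose. *Atp6v1a* stood at 99.4 and 103 CPM in the MIZ-1WT libraries and at 119 and 113 CPM in the MIZ-1△POZ libraries. Levels were higher in both MIZ-1△POZ libraries, with means of 101 ± 2.29 CPM in MIZ-1WT and 116 ± 4.83 CPM in MIZ-1△POZ (SD, n = 2 each). On the log2 scale the change was 0.20 ± 0.052 (SE; edgeR adjusted p = 0.0288). Its partner in the ATP-binding head, *Atp6v1b2*, fell instead. *Atp6v1b2* stood at 88.4 and 85.6 CPM in the MIZ-1WT libraries and at 69.3 and 76.9 CPM in the MIZ-1△POZ libraries. The groups did not overlap, and the log2 fold change was -0.25 ± 0.066 (SE; edgeR adjusted p = 0.0294).

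*Atp6v1g1* (chr4:63544772-63550750, plus strand), a subunit of the peripheral stalk, fell the most of the pump genes. *Atp6v1g1* stood at 59.8 and 62.8 CPM in the MIZ-1WT libraries and at 49.6 and 47.9 CPM in the MIZ-1△POZ libraries. Levels were lower in both MIZ-1△POZ libraries, with means of 61.3 ± 2.16 CPM in MIZ-1WT and 48.8 ± 1.19 CPM in MIZ-1△POZ (SD, n = 2 each). edgeR gave a log2 fold change of -0.33 ± 0.056 (SE; edgeR adjusted p = 0.00799). A processed pseudogene, *Gm13453*, shares sequence with it and had 73 to 93 counts per library, so the count of *Atp6v1g1* is uncertain by reads that could not be placed. *Atp6v1c1* (chr15:38661933-38692446, plus strand), a stalk subunit that regulates assembly, had the largest p of the V1 genes. *Atp6v1c1* stood at 71.8 and 72.2 CPM in the MIZ-1WT libraries and at 72.8 and 70.1 CPM in the MIZ-1△POZ libraries. The genotypes overlapped, with means of 72.0 ± 0.276 CPM in MIZ-1WT and 71.5 ± 1.87 CPM in MIZ-1△POZ (SD, n = 2 each). For *Atp6v1c1* the log2 fold change was -0.012 ± 0.05 (SE; 95% interval -0.13 to 0.11; edgeR adjusted p = 0.870).

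The remaining V1 subunits *Atp6v1d* (-0.078), *Atp6v1e1* (0.052), *Atp6v1f* (0.018) and *Atp6v1h* (0.044) had log2 fold changes near 0 and did not pass. The calls of *Atp6v1a* (0.17 and 0.22) and *Atp6v1b2* (-0.23 and -0.28) were lost without either MIZ-1WT library. The call of *Atp6v1b2* was also lost without MIZ-1△POZ replicate 1 (-0.17), without TMM and with a minimum of 30 RPM, and that of *Atp6v1g1* was lost without MIZ-1WT replicate 2 (-0.30).

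Summed levels put these groups beside the markers of the cells in the sample. The luminal hydrolases and helper proteins together stood at 4783 and 4981 CPM in MIZ-1WT and at 8236 and 6918 CPM in MIZ-1△POZ, a ratio of means of 1.55. The pump subunits together stood at 969 and 973 CPM and 921 and 903 CPM, a ratio of 0.939. The 10 pan-B cell markers stood at 19122 and 19329 CPM and 16502 and 17249 CPM, a ratio of 0.878, and the macrophage markers had a ratio of 4.17. Plasma cell markers, another list with high levels of secretory genes, had 7 of 8 genes higher, with sums of 884 and 1203 CPM in MIZ-1WT and 2727 and 2557 CPM in MIZ-1△POZ. Of the marginal zone B cell markers 8 of 10 were higher and 0 were lower (median 0.66). Follicular B cell markers went the other way, with 4 of 7 lower and 1 higher (median -0.25). The 1 called higher was *Cr2* (0.25), which is also on the marginal zone list, and *Mzb1* is on both the plasma cell and the marginal zone lists. *Ighd*, the other gene of the follicular list, was not found under that symbol. The 8 conventional dendritic cell markers were mixed, with 3 higher and 1 lower (median 0.55). Their summed level had means of 234 CPM in MIZ-1WT and 248 CPM in MIZ-1△POZ, a ratio of 1.06. Most of that sum was *Dpp4*, with means of 194 and 188 CPM (log2 fold change -0.046), so the ratio says little about the other markers. *Cd209a*, the 1 called lower, had a log2 fold change of -1.35. Of the 7 neutrophil markers that could be tested, 3 were higher and 0 were lower (median 1.73), at a low level. The sums of the neutrophil list overlapped between genotypes, at 16.6 and 5.88 CPM in MIZ-1WT and 15.3 and 22.6 CPM in MIZ-1△POZ. In the other lists, 2 of 13 T cell markers were higher and 0 lower (median 0.030), and 2 of 8 NK cell markers were higher and 1 lower (median 0.053). Of 7 plasmacytoid dendritic cell markers 1 was higher and 1 lower (median -0.21). Of 10 erythroid markers 2 were higher and 1 lower (median 0.62), and their summed level had a ratio of 0.986. Over all tested genes 21.1% were higher and 18.9% were lower. The part of these cells in the results was not tested either.

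**Figure D3:**
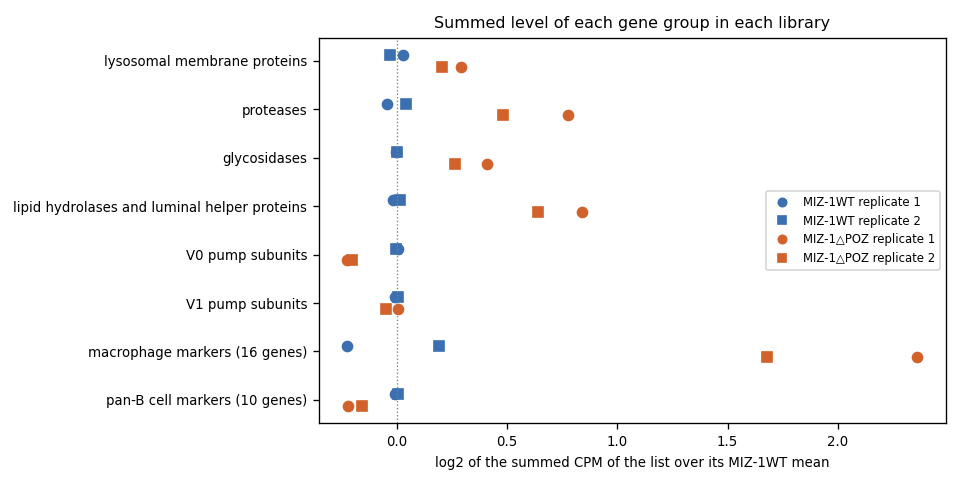
Summed CPM of each gene group in each library, as the log2 of its ratio to the MIZ-1WT mean of that group (MIZ-1WT in blue, MIZ-1△POZ in orange, replicate 1 as circles and replicate 2 as squares). The 4 enzyme and membrane groups lie to the right of 0 in both MIZ-1△POZ libraries, the V0 subunits lie to the left, and the macrophage markers lie farthest to the right, with replicate 1 above replicate 2.

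The MIZ-1△POZ libraries also differed from each other, and part of the list had the same order as the macrophage markers. All 16 macrophage markers were higher in MIZ-1△POZ replicate 1 than in replicate 2 (median log2 difference 0.68) and all 16 were lower in MIZ-1WT replicate 1 than in MIZ-1WT replicate 2 (median -0.39). Of the 21 members called higher, 19 were higher in MIZ-1△POZ replicate 1 (median 0.21) and 17 were lower in MIZ-1WT replicate 1 (median -0.042). Both orders were shown by 15 of them (71.4%), by 22 of all 45 tested members (48.9%) and by 28.2% of all tested genes. The share among all genes called higher was not computed, so the 71.4% has no like background. By group, both orders were shown by 8 of 10 proteases, 2 of 8 glycosidases, 4 of 6 lipid hydrolases and helpers, 3 of 8 membrane proteins and 5 of 13 pump subunits. Of the 19 members that did not pass the test, 4 (21.1%) showed both orders, as did 3 of the 5 called lower. *Ctsb*, at 0.588, and *Ctsl*, at 0.707, had the widest log2 differences between the MIZ-1△POZ libraries, whereas *Glb1* (-0.0566), *Gaa* (-0.151) and *Naglu* (0.00188) had small ones or the opposite order. This order is a description of 4 libraries, and the part of macrophages in it was not tested.

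**Figure D4:**
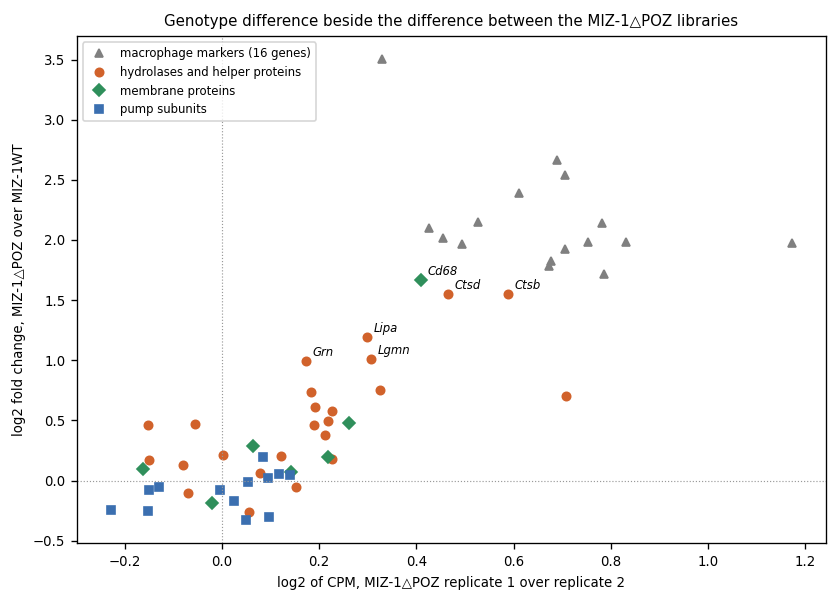
Log2 fold change between genotypes (vertical axis) beside the log2 ratio of the MIZ-1△POZ libraries, replicate 1 over replicate 2 (horizontal axis), for the tested genes other than *Cd63* and for the 16 macrophage markers. Both axes use the same MIZ-1△POZ libraries, so they are not independent: *Cd68*, *Ctsd* and *Ctsb* lie toward the macrophage markers at the upper right, and the pump subunits lie around 0 on both axes.

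Other lysosomal genes were read from lists of 69 further genes, of which 63 could be tested, 25 were higher in MIZ-1△POZ and 5 were lower (median 0.16). Over all tested genes 21.1% were higher and 18.9% were lower. Of 32 other hydrolases and helpers, 15 were higher and 2 were lower (median 0.22). *Ctso*, a cysteine protease, had the smallest p of them. *Ctso* stood at 136 and 141 CPM in the MIZ-1WT libraries and at 193 and 199 CPM in the MIZ-1△POZ libraries. The groups did not overlap, with a log2 fold change of 0.50 ± 0.046 (SE; edgeR adjusted p = 0.00170). With either MIZ-1WT library left out, fewer of the 63 genes were called higher or lower, and fewer of all tested genes were called as well.

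Of 19 other membrane proteins, 5 were higher and 0 were lower (median 0.075). The count of those higher is near the share of all tested genes (21.1%). *Slc11a1*, the divalent metal transporter of phagosomes in macrophages, had the smallest p. *Slc11a1* stood at 15.2 and 17.2 CPM in the MIZ-1WT libraries and at 96.4 and 59.1 CPM in the MIZ-1△POZ libraries. This made a log2 fold change of 2.26 ± 0.24 (SE; edgeR adjusted p = 0.00208), and its gap between the MIZ-1△POZ libraries was wide. Of 11 other pump subunits and accessory proteins, 5 could be tested, 1 was higher and 2 were lower. These counts are small and were not tested against the shares of all tested genes. *Tcirg1*, the a3 isoform of the large V0 subunit, stood at 134 and 129.6 CPM in MIZ-1WT and at 110.4 and 111 CPM in MIZ-1△POZ, with a log2 fold change of -0.25 ± 0.044 (SE; edgeR adjusted p = 0.00910). *Atp6v1g2*, an isoform of the stalk subunit best known from neurons, was low, at 1.86 and 1.78 CPM in MIZ-1WT and 2.65 and 2.73 CPM in MIZ-1△POZ, with a log2 fold change of 0.56 ± 0.17 (SE; edgeR adjusted p = 0.0487).

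Of 7 delivery receptors and regulators, 4 were higher and 1 was lower. *Sort1*, the sorting receptor sortilin, which binds prosaposin and progranulin, showed the largest of these differences. *Sort1* stood at 12.1 and 14.1 CPM in the MIZ-1WT libraries and at 61.6 and 43.5 CPM in the MIZ-1△POZ libraries. The log2 fold change was 2.00 ± 0.18 (SE; edgeR adjusted p = 0.00157). *Tfeb*, the best-known regulator of lysosomal genes, went the other way, at 101 and 98.0 CPM and 88.0 and 89.3 CPM, with a log2 fold change of -0.17 ± 0.047 (SE; edgeR adjusted p = 0.0358). Its relative *Tfe3* had 0.021 ± 0.082 (SE; 95% interval -0.18 to 0.22; edgeR adjusted p = 0.853). *Mitf*, a factor of the same family, stood at a low level, at 2.50 and 2.55 CPM in MIZ-1WT and 7.20 and 4.78 CPM in MIZ-1△POZ, and its log2 fold change was 1.25 ± 0.23 (SE; edgeR adjusted p = 0.0101). The MIZ-1△POZ libraries lay above MIZ-1WT for *Sort1* and *Mitf* and below it for *Tfeb*.

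Exons of *Lamp1*, *Npc1*, *Ctsa*, *Ctsb*, *Ctsz*, *Hexa*, *Grn*, *Atp6v0b*, *Atp6v1e1* and *Atp6v1h* overlap those of a gene on the other strand. The kit marked strand, but the strand setting of the counting is not given in the sources used here, so reads of such pairs could be mixed or set aside. *Glb1* overlaps *Tmppe* on the same strand, and 26.3% of the read-length stretches of *Ctsl* are shared with other annotated genes.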

How the data were processed

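RNA was sequenced from B220+ splenocytes, with 2 libraries of each genotype from biological replicates, grouped as labelled. The deposited values are raw counts per Ensembl gene. Per the study's methods, the authors depleted ribosomal RNA, prepared stranded paired-end libraries, trimmed reads with Trimmomatic, mapped them to mm10 with TopHat2 (version 2.1.0 in the submitters' processing notes) and counted with HTSeq. The strand setting is not given in the sources used here. Reads without a unique alignment, which this counting sets aside, made up between 42.8% and 44.1% of the table, and such lines were left out of library sizes. Of 41214 genes, 40254 were given a symbol from GENCODE M21 (GRCm38), whose coordinates are used.

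The counts were tested with edgeR 4.0.16 in R 4.3.3: TMM normalization, a minimum of 10 counts in 2 or more libraries (which 14554 genes met), the quasi-likelihood test with genotype as its only term, and p-values adjusted by Benjamini-Hochberg over the whole tested table, with a threshold of 0.05. The SE is the log2 fold change divided by the square root of its F statistic. CPM are counts per 1000000 of the TMM-corrected library size, RPKM divide them by exon length, and RPM use the plain library size. Alternatives were other scalings, DESeq2 1.42.0, other filters, the replicate number as a block, removal of 257 immunoglobulin segments and leaving out each library. The test was checked on simulated data. Promoter windows came from RefSeq (GRCm38.p6).

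The members and lists were chosen with earlier results of these data known. All members are named. In each of the 6 role groups the 2 tested members with the smallest p and the 1 with the largest p are given in full, with *Atp6v0d1*, *Atp6v0d2*, *Gla* and *Lamp2* in addition. From each other lysosomal list the called gene with the smallest p in each direction is given, with *Tfeb*, *Tfe3*, *Mitf* and *Tcirg1*; 1 such gene is not reported here. Replicate differences were larger than sampling noise in both genotypes, so no library was counted as a copy of another.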

Additional observations from a re-analysis of the deposited data

How the results depend on the processing

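Each genotype had 2 libraries, and where 1 was left out the lone library was assumed to vary like the other genotype. Depth limited *Atp6v0d2* and *Cd63*, which had at most 23 counts in any library. No called member changed direction under any alternative. Members called lower numbered 3 without TMM, 3 with a minimum mean of 30 RPM and 3 with the replicate block, against 5. Other lysosomal genes called lower numbered 2, 2 and 3 under the same settings, also against 5. All genes called numbered 2746 with the minimum of 30 RPM, against 5822, since only 6052 genes were then tested. Without TMM the group medians were 0.39 for glycosidases, -0.11 for V0 subunits and 0.064 for V1 subunits. The median over all tested genes was then 0.054, against -0.0064 in the main fit. With the minimum of 30 RPM the medians were 0.28 for glycosidases, where *Gla* was not tested, and 0.080 for V1 subunits. The cause of these shifts was not tested. Leaving out 1 library gave from 2222 to 5580 genes called, from 10 to 23 members higher and from 0 to 5 lower, and from 9 to 30 other lysosomal genes higher and from 0 to 4 lower. The medians then ranged from 0.20 to 0.33 for membrane proteins, 0.30 to 0.54 for proteases, 0.31 to 0.35 for glycosidases, 0.62 to 0.88 for lipid hydrolases and helpers, -0.19 to -0.13 for V0 subunits and -0.025 to 0.059 for V1 subunits. The labels give replicate numbers and no pairing of libraries across genotypes. The correlation of deviations between libraries of the same number was -0.069, which cannot show whether they were handled together. With the replicate number as a block *Ctsz*, *Naglu*, *Atp6v0e*, *Atp6v1a* and *Atp6v1b2* lost their calls, which left 18 members higher. DESeq2 size factors and removal of immunoglobulin segments each left 21 members higher and 5 lower.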

Other observations

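Among the cathepsins outside the list, *Ctsf* had a log2 fold change of 2.14 ± 0.33 (SE; edgeR adjusted p = 0.00583), at 0.871 and 1.12 CPM in MIZ-1WT and 5.55 and 3.21 CPM in MIZ-1△POZ, and *Ctsk*, of -0.63 ± 0.39 (SE; 95% interval -1.60 to 0.33; edgeR adjusted p = 0.239), at 0.733 and 0.452 CPM and 0.441 and 0.319 CPM. *Acp2*, a lysosomal acid phosphatase, had 1.74 ± 0.19 (SE; edgeR adjusted p = 0.00242), while *Acp5*, the tartrate-resistant acid phosphatase, had -0.16 ± 0.045 (SE; edgeR adjusted p = 0.0336). These genes were chosen after their values were seen, and the differences between their fold changes were not tested.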
